A study of Mus musculus with 12 samples.

Results

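Muc6, Muc5ac, Tff1, Tff2, Gkn1, Gkn2, Gkn3, Cym and Pgc encode secreted products of the stomach, and some of them are also made by Brunner's glands, the mucous glands of the proximal duodenum. The 9 genes were chosen by name, with earlier results of these data known. Each was read from the array feature that carries its symbol alone, taking the feature with the highest mean where a gene had several. All 9 were measured, out of 19938 genes in all. RNA came from duodenum of untreated strain 129 mice, of mixed sex, in 4 groups of 3 arrays: Onecut2 knockout mice at postnatal day 15, wild type mice at day 15, Onecut2 knockout mice at day 30 and wild type mice at day 30. Each array held RNA pooled from 5 to 8 mice, so the errors below describe the spread between pools. Onecut2, a transcription factor gene, is described as ablated, and the labels name neither the allele nor a promoter or cell type that limits the deletion. Nor do they say how far from the stomach a segment was cut.

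In the stomach, surface pit cells secrete the gel-forming mucin Muc5ac together with the trefoil peptide Tff1 and the gastrokines Gkn1 and Gkn2. Mucous neck cells and the deep glands next to the pylorus secrete a different mucin, Muc6, with the trefoil peptide Tff2, and Brunner's glands on the duodenal side make this same pair. The proteases are made as inactive precursors by gland cells of the stomach: Pgc encodes pepsinogen C and Cym encodes prochymosin, whose active form clots milk in suckling mammals.

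The 12 arrays had median log2 values of 7.20 to 7.25 over all features. Onecut2 ran from 8.09 to 8.25 on the 6 knockout arrays, against 9.50 to 9.69 on the 6 wild type arrays. The duodenal factor genes Pdx1 (9.69 to 10.57), Cdx2 (9.67 to 10.01) and Gata4 (10.36 to 10.77) were measured well above the dim features described next on every array. As a scale for dim features, 1027 olfactory receptor genes had a median level of 4.72 and a 95th percentile of 6.48. Of genes of other gastric cells, the acid pump subunits Atp4a (6.36 to 6.71) and Atp4b (6.59 to 7.02) of parietal cells and the pepsinogen gene Pga5 (6.11 to 6.76) lay near the upper end of that scale, and the stomach factor Sox2 (5.28 to 5.48) lay inside it. The hormone genes Gast (7.42 to 7.97) and Ghrl (7.34 to 8.26) lay above it. The mean level was under 6.48 for 3 of 11 parietal cell genes, 3 of 7 chief cell genes other than Cym and Pgc, and 0 of 6 gastric endocrine genes. Knockout replicate 1 at day 15 and wild type replicate 2 at day 30 stood apart from their groups in Pgc and several pit cell genes. Results that rest on them are given with and without them. Xist, which marks female RNA, ran from 9.26 to 11.37 over the arrays, so the sex mix differed between pools, and no fit took account of it.

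The promoters of 6 of the 9 genes were found in a RefSeq table of assembly GRCm38.p6. For 5 of them the 250 bases before the transcript start are shown. Muc6 and Gkn3 are shown because their levels separated the genotypes at both ages, Cym for its large change with age, Gkn2 for its variation between pools, and Pgc for its match to the Onecut core motif. Capitals mark matches to 3 motifs searched on both strands: TATAAA (a form of the TATA box), AGATAA (a form bound by GATA factors) and ATTGAT (a form of the Onecut core). Only exact matches were searched, so other forms of these motifs are not marked.
Muc6 (chr7:141655394-141655643, minus strand): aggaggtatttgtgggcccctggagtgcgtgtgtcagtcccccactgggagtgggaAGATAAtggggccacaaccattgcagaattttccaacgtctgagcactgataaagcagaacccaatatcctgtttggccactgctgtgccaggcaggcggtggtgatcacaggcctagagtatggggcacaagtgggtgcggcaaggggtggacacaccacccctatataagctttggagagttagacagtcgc
Gkn3 (chr6:87388936-87389185, minus strand): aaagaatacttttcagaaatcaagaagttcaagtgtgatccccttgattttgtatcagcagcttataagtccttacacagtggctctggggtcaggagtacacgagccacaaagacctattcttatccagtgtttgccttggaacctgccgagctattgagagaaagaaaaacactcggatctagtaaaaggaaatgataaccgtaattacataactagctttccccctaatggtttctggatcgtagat
Cym (chr3:107221733-107221982, minus strand): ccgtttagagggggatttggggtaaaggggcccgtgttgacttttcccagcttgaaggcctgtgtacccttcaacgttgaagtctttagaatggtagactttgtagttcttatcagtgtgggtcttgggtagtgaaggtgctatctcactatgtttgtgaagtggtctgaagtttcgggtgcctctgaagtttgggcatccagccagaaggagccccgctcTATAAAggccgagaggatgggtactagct
Pgc (chr17:47726592-47726841, plus strand): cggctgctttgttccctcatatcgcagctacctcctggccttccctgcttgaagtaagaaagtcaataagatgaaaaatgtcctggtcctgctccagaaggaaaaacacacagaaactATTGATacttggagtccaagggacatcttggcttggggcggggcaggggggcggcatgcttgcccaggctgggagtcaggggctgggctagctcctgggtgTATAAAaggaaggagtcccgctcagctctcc
Gkn2 (chr6:87373115-87373364, plus strand): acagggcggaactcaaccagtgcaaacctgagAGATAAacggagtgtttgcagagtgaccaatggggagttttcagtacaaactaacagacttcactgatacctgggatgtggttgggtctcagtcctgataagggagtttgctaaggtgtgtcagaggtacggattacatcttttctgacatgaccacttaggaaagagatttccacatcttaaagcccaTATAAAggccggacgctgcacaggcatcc
Cym and Gkn2 had TATAAA 29 to 24 bases before the start, and Pgc had it at 31 to 26. AGATAA stood 194 to 189 bases upstream in Muc6, 218 to 213 in Gkn2 and 82 to 77 in Gkn1. ATTGAT was present 132 to 127 bases upstream of Pgc and in none of the other 5 windows. No matches overlapped. Among all 32851 promoter windows in the table, 12.4% held TATAAA, 9.99% AGATAA and 6.72% ATTGAT on either strand. A match describes letters in a window and no binding was measured.

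The members lie in clusters in the genome. Gkn1, Gkn2 and Gkn3 are direct neighbours on chromosome 6. Muc6 and Muc5ac lie on chromosome 7 with only the goblet cell mucin Muc2 between them, and Tff1 and Tff2 lie on chromosome 17 beside Tff3. Pgc is on chromosome 17 and Cym on chromosome 3.

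At day 15, the 3 gland mucus genes were lower in knockout duodenum than in wild type. Muc6 was 1.59-fold, Tff2 1.45-fold and Gkn3 1.54-fold lower, and Cym was lower by 2.73-fold. Called means a limma adjusted p under 0.05 over all 19938 genes. Of the 9 members, 4 were called lower and 0 higher, where 2.03% of all genes were called lower and 1.81% higher. At an unadjusted limma p under 0.05 the count was 5 of 9, the fifth being Pgc. The share of all genes under an unadjusted threshold was not computed, here or below. The median log2 fold change of the 9 members was -0.61, against -0.01 for all genes. As the members were chosen with earlier results of these data known, these counts and medians describe the list and do not test it. In bulk tissue, fewer cells of a type and less RNA per cell cannot be told apart.

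Muc6, the gland mucin, had log2 values of 12.05, 11.89 and 11.73 in knockout at day 15, against 12.77, 12.38 and 12.53 in wild type. Every knockout pool lay below every wild type pool. The log2 fold change was -0.67 (SE 0.10, limma adjusted p = 0.00264). Tff2, the trefoil peptide secreted with Muc6, had 13.09, 13.03 and 12.82 in knockout, against 13.58, 13.46 and 13.51 in wild type. The groups did not overlap here either, and the log2 fold change was -0.53 (SE 0.07, limma adjusted p = 0.000585). Gkn3, a gastrokine known from mouse mucous neck cells, had 12.12, 12.04 and 11.87 in knockout, against 12.63, 12.60 and 12.68 in wild type. The lowest wild type pool stood well above the highest knockout pool. Its log2 fold change was -0.62 (SE 0.06, limma adjusted p = 0.00011). Of the 9 members, 4 had knockout arrays all below the wild type arrays at this age, which 12.2% of all genes did.

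A4gnt, the enzyme that caps Muc6 with its terminal N-acetylglucosamine, had 9.64, 9.43 and 9.34 in knockout, against 10.28, 9.98 and 10.20 in wild type. It was lower too, by -0.68 on the log2 scale (SE 0.11, limma adjusted p = 0.00313). In the list of mucous neck and pyloric gland genes, 4 of 8 measured members were lower and 0 higher at day 15. These were Muc6, Tff2, Gkn3 and A4gnt, and the list's median log2 fold change was -0.58, against -0.01 for all genes. Tff3, the trefoil peptide of goblet cells and the neighbour of Tff2, averaged 12.77 ± 0.08 in knockout and 12.73 ± 0.11 in wild type (SD, n = 3 each). Its log2 fold change was 0.04, with a 95% interval of -0.10 to 0.18. Agr2, a chaperone of mucin folding, was lower (-0.31, SE 0.05, limma adjusted p = 0.00421), the only one of 16 genes of the mucous secretory machinery to be called at day 15.

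Muscle transcripts moved in the same direction. Of 12 smooth muscle genes 3 were called lower at day 15, among them Myh11 (-0.31), and 11 had an unadjusted limma p under 0.05. The list's median log2 fold change was -0.21. Array means of the list ran from 10.46 to 10.64 in knockout, against 10.74 to 10.84 in wild type. With that mean as a covariate the log2 fold change of Muc6 was -0.71 (SE 0.19) and it was no longer called (limma adjusted p = 0.179), while Tff2 (-0.65), Gkn3 (-0.66) and Cym (-1.41) were still called. Without the covariate Muc6 had -0.67 (SE 0.10), so its estimate did not shrink and its error grew. As the muscle means did not overlap between genotypes at day 15, this fit can hardly tell muscle and genotype apart. The pancreas acinar list, another tissue that a duodenal segment can carry, had a mean of 11.22 to 11.68 in knockout, against 11.61 to 11.70 in wild type, with a median log2 fold change of -0.21 at day 15. Of its 23 genes 1 was called higher and 0 lower, and 11 had an unadjusted limma p under 0.05. At day 30 the list's median was -0.25, with 0 called by limma and 7 at an unadjusted p under 0.05. With the pancreas mean as a covariate the 4 calls at day 15 held. Other lists had lower array means in knockout at day 15 as well. The duodenal and proximal enterocyte list ran from 11.31 to 11.48, against 11.67 to 11.74 in wild type (median log2 fold change 0.01). The ileum and colon list ran from 6.93 to 7.01, against 7.18 to 7.24 (-0.01). Liver and bile duct ran from 6.61 to 6.74, against 6.91 to 6.99 (-0.08). Goblet cell and squamous forestomach means overlapped between genotypes.

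At day 30 the 3 gland mucus genes again had lower values on every knockout array than on any wild type array. Gkn3 was the only member called, 1 lower and 0 higher among 9, where 0.943% of all genes were called lower and 1.04% higher. At an unadjusted limma p under 0.05 the count was 3, with no share of all genes to set beside it. Gkn3 had 12.13, 12.06 and 12.07 in knockout, against 12.41, 12.46 and 12.39 in wild type. The groups did not overlap and the log2 fold change was -0.33 (SE 0.06, limma adjusted p = 0.0152). The call ended without knockout replicate 2 (limma adjusted p = 0.0581), without wild type replicate 2 (0.069) or without wild type replicate 3 (0.0507), and the log2 fold change then lay between -0.35 and -0.31.

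Muc6 had 12.45, 12.30 and 12.32 in knockout at day 30, against 12.71, 12.83 and 12.62 in wild type. The pools separated, but the log2 fold change of -0.36 (SE 0.10) was not called (limma adjusted p = 0.115; 0.0478 with an intensity trend in the variance). Tff2 had 13.31, 13.31 and 13.32 in knockout, against 13.50, 13.50 and 13.46 in wild type. Its log2 fold change of -0.18 (SE 0.07) was not called either (limma adjusted p = 0.298). Knockout arrays lay below all wild type arrays for 3 of 9 members, as they did for 7.49% of all genes. Whether the genotype difference had shrunk by day 30 was tested directly, and none of the 3 genes was called: the difference of effects was 0.31 for Muc6, 0.36 for Tff2 and 0.29 for Gkn3, with adjusted p-values of 0.574, 0.172 and 0.271 from limma. For A4gnt the day 30 value was -0.16 (limma adjusted p = 0.663).

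**Figure D1:**
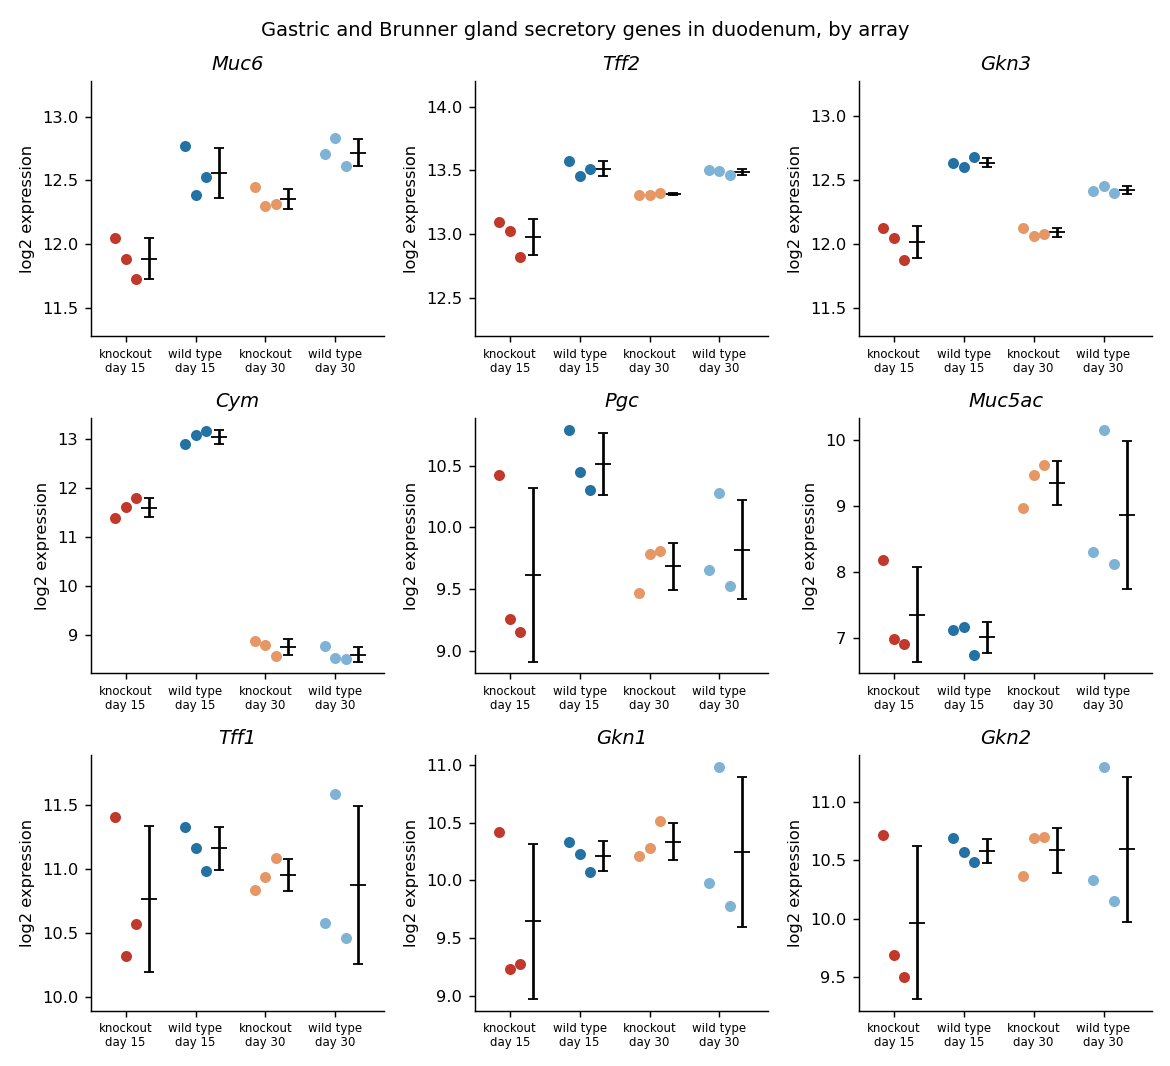
Log2 expression of the 9 genes on each of the 12 arrays (points), with the mean and SD of each group of 3 (bars), in knockout and wild type at day 15 and then at day 30. Muc6, Tff2 and Gkn3 points lie lower in knockout at both ages, Cym separates the genotypes at day 15 only, and Gkn1, Gkn2, Tff1, Pgc and Muc5ac have 1 high array each in the knockout group at day 15 and the wild type group at day 30.

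The pit cell products Gkn1, Gkn2, Tff1 and Muc5ac did not separate the genotypes. Gkn1 and Gkn2 encode gastrokines, small proteins that pit cells release with mucus. Gkn1 had 10.42, 9.24 and 9.28 in knockout at day 15, against 10.33, 10.23 and 10.07 in wild type. Gkn2 had 10.71, 9.69 and 9.50 in knockout, against 10.69, 10.57 and 10.49 in wild type. For both genes 2 knockout pools lay below all wild type pools and the remaining pool lay above them. The log2 fold changes were -0.57 for Gkn1 (95% interval -1.25 to 0.12, limma adjusted p = 0.457) and -0.61 for Gkn2 (95% interval -1.27 to 0.05, limma adjusted p = 0.381).

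At day 30 Gkn1 had 10.22, 10.28 and 10.52 in knockout, against 9.97, 10.98 and 9.78 in wild type. Gkn2 had 10.36, 10.69 and 10.70 in knockout, against 10.33, 11.30 and 10.15 in wild type. The knockout values lay inside the range of the wild type values for both genes. The log2 fold changes were 0.09 for Gkn1 (95% interval -0.59 to 0.77) and -0.01 for Gkn2 (95% interval -0.67 to 0.65).

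Tff1, the trefoil peptide of pit cells, had 11.41, 10.32 and 10.57 in knockout at day 15, against 11.33, 11.17 and 10.99 in wild type. At day 30 it had 10.83, 10.94 and 11.08 in knockout, against 10.58, 11.59 and 10.46 in wild type. The groups overlapped at both ages. The log2 fold change was -0.40 at day 15 (95% interval -1.02 to 0.23) and 0.08 at day 30 (95% interval -0.55 to 0.70).

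Muc5ac, the mucin of pit cells, had 8.18, 6.98 and 6.90 in knockout at day 15, against 7.13, 7.16 and 6.74 in wild type. At day 30 it had 8.97, 9.46 and 9.61 in knockout, against 8.31, 10.15 and 8.12 in wild type. The genotypes overlapped at each age, and Muc5ac varied most between pools of all 9 members. Its log2 fold change was 0.34 at day 15 (95% interval -0.65 to 1.33) and 0.49 at day 30 (95% interval -0.50 to 1.48). Both intervals extend past a 2-fold higher level and neither reaches a 2-fold lower level.

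**Figure D2:**
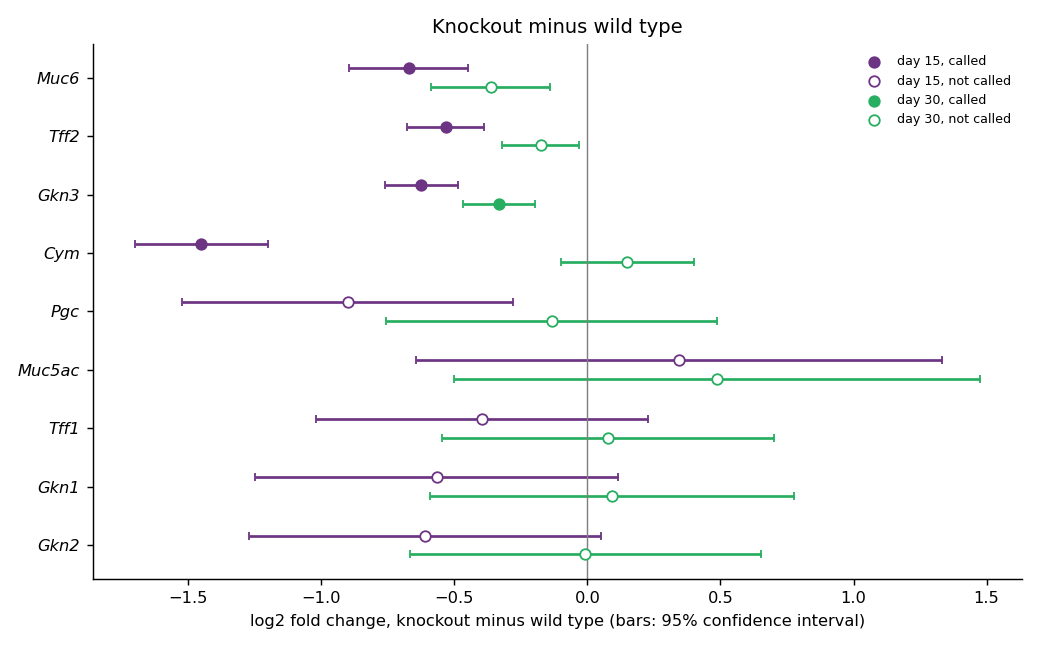
Log2 fold change, knockout minus wild type, of each gene at day 15 and day 30, with 95% confidence intervals from limma. Filled points are called at an adjusted p under 0.05 over all genes: Muc6, Tff2, Gkn3 and Cym at day 15 and Gkn3 at day 30.

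Among the members, pools of 1 group differed far more in Gkn1, Gkn2, Tff1, Muc5ac and Pgc than in Muc6, Tff2, Gkn3 and Cym. The pooled SD within groups was 0.48 for Gkn1, 0.46 for Gkn2, 0.43 for Tff1, 0.43 for Pgc and 0.69 for Muc5ac. It was 0.14 for Muc6, 0.08 for Tff2, 0.07 for Gkn3 and 0.16 for Cym, and its median over all genes was 0.09. Gkn3 thus had a small spread beside Gkn1 and Gkn2, its neighbours on the chromosome, as a description.

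The high values fell on the same arrays. Knockout replicate 1 at day 15 exceeded the mean of the other 2 pools of its group by 1.24 in Muc5ac, 1.21 in Pgc, 1.16 in Gkn1, 1.12 in Gkn2 and 0.96 in Tff1. Wild type replicate 2 at day 30 exceeded the mean of its group's other pools by 1.93 in Muc5ac, 1.11 in Gkn1, 1.07 in Tff1, 1.06 in Gkn2 and 0.69 in Pgc. Such a gap of at least 0.5 was found in 63 genes (0.316%) on the knockout array and in 84 genes (0.421%) on the wild type array. Of the other 9 genes on the pit cell list, 4 had such a gap on the knockout array and 3 on the wild type array, and their mean gaps were 0.46 and 0.50. The widest, named after their values had been seen, were those of Psca, by 0.97 and 1.21, the junction protein gene Cldn18, by 0.81 and 0.91, and the adhesion gene Vsig1, by 0.76 and 0.90. The gaps were 0.59 and 0.35 for Anxa10, 0.44 and 0.35 for Ctse and 0.20 and 0.34 for Sult1c2. They were 0.16 and 0.33 for Capn8, 0.01 and 0.23 for Capn9, and 0.22 and -0.07 for Aqp5. In the gland genes the gaps were 0.24 and 0.17 for Muc6, 0.17 and 0.01 for Tff2 and 0.16 and 0.05 for Gkn3. They were 0.26 and 0.29 for A4gnt. The gaps of the pit cell genes Sult1c2, Capn8, Capn9 and Aqp5 were of like size, so the wide gaps were those of part of the pit cell list.

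Markers of other tissue differed between these arrays. The mean of the pancreas acinar list was 0.03 above the other pools on the knockout array and 0.57 above on the wild type array, smooth muscle 0.03 and 0.12, and the squamous forestomach list 0.08 and -0.03. Among genes of other gastric cells, the gaps on the 2 arrays were 0.545 and 0.429 for Gast and 0.476 and -0.12 for Pga5. For Ghrl they were -0.109 and 0.206, for Atp4a 0.02 and -0.03, and for Atp4b -0.09 and 0.07. Xist was lower by 0.27 on the knockout array and higher by 1.28 on the wild type array than the mean of the other pools. Their part in the pit cell values was not tested. On knockout replicate 1 at day 15 the pit cell genes Gkn1, Gkn2 and Tff1 were above all wild type pools of that age, while Muc6, Tff2, Gkn3 and Cym were below all of them.

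Leaving out knockout replicate 1 at day 15 kept the calls of Muc6, Tff2, Gkn3 and Cym at that age and added that of Pgc. With this array and wild type replicate 2 at day 30 both left out, the log2 fold changes at day 15 were -0.95 for Gkn1, -0.98 for Gkn2 and -0.72 for Tff1, and 8 of the 9 members were called, beside 3.43% of all genes. At day 30 that fit called 1 member, Muc5ac, beside 1.39% of all genes. Muc5ac was higher in knockout by 1.13 (SE 0.17, limma adjusted p = 0.00817), and the call of Gkn3 ended (limma adjusted p = 0.0509). Those arrays were picked for their pit cell values, which narrows the spread of the same genes, so these calls are given as a description and the fit with all 12 arrays is the result. In it, the genotype differences of Gkn1, Gkn2, Tff1 and Muc5ac were not detectable beyond the spread between pools. The signs of Tff1 (0.25) and Gkn1 (0.0003) at day 15 turned when smooth muscle was the covariate. Neither was called.

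**Figure D3:**
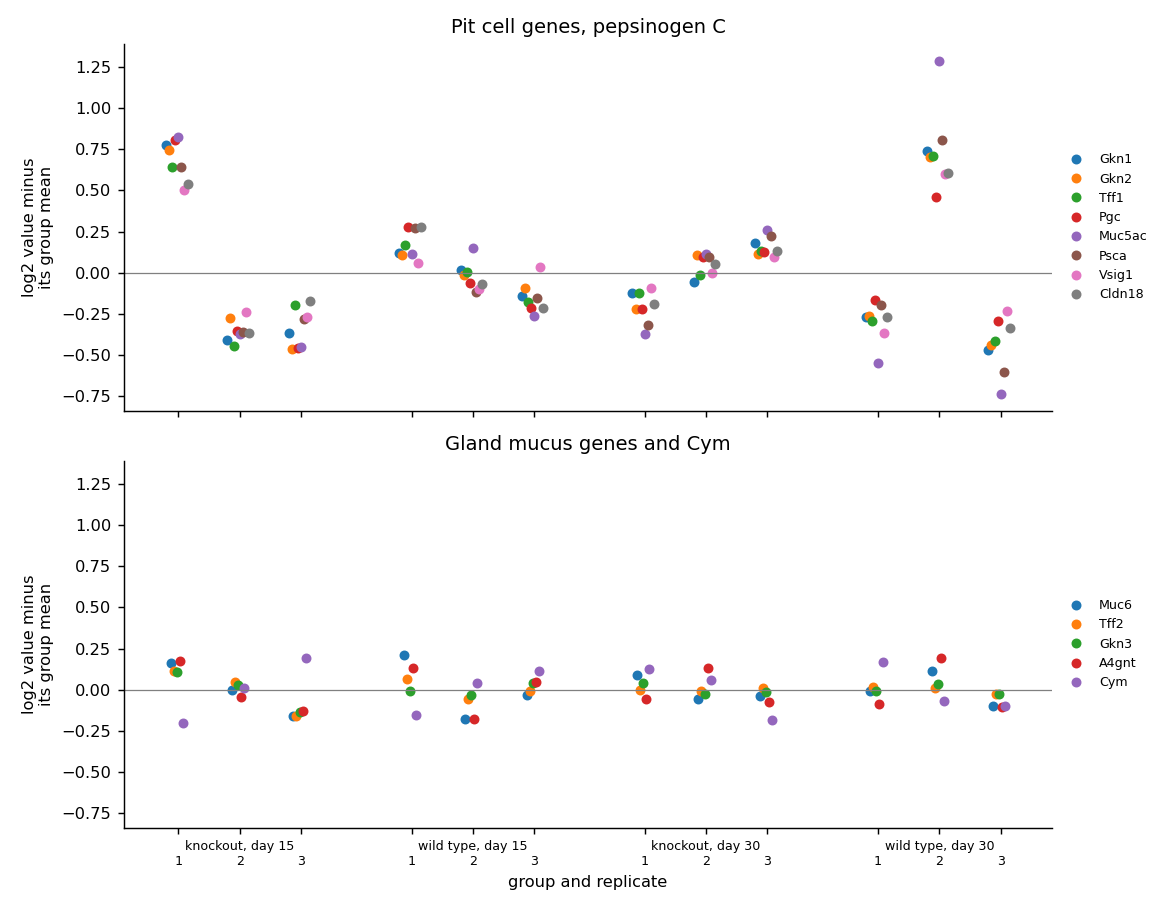
Log2 value of each gene on each array minus the mean of its group, for pit cell genes and Pgc (upper panel) and for gland mucus genes and Cym (lower panel), with genes placed in panels after their values had been seen. Knockout replicate 1 at day 15 and wild type replicate 2 at day 30 lie high for the genes of the upper panel, whereas the genes of the lower panel stay near 0.

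Of the protease genes, Cym was called at day 15 and Pgc was not. Cym had the largest genotype difference among the members at day 15. No such difference was called at day 30, when its level was below that of day 15 in both genotypes but above the scale of dim features. Cym had 11.40, 11.61 and 11.79 in knockout at day 15, against 12.89, 13.09 and 13.17 in wild type. Every knockout pool was more than 1 log2 unit below the lowest wild type pool. The log2 fold change was -1.45 (SE 0.12, limma adjusted p = 1.42e-05), the 14th most negative of all 19938 genes.

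At day 30 Cym had 8.88, 8.81 and 8.57 in knockout, against 8.77, 8.53 and 8.50 in wild type. The groups overlapped, with a log2 fold change of 0.15 (95% interval -0.10 to 0.40, limma adjusted p = 0.741). The difference between the genotype effects at the 2 ages was itself called, at 1.60 (SE 0.16, limma adjusted p = 0.00079). Cym was the only one of 9 members called in that comparison, where 0.456% of all genes were called, and its difference was the 6th highest.

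Pgc had 10.42, 9.26 and 9.16 in knockout at day 15, against 10.79, 10.45 and 10.30 in wild type. A single knockout pool lay within the wild type range and the others lay more than 1 log2 unit below it. The log2 fold change of -0.90 (SE 0.29, 95% interval -1.52 to -0.28) was not called (limma adjusted p = 0.12), but was called without knockout replicate 1 (-1.31, SE 0.20, limma adjusted p = 0.00363). At day 30 Pgc had 9.47, 9.78 and 9.81 in knockout, against 9.65, 10.28 and 9.53 in wild type. The groups overlapped, and the log2 fold change was -0.13 (95% interval -0.76 to 0.49).

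Of 9 measured genes on the chief cell list, only Cym was called at day 15, and at day 30 only Cblif, which encodes gastric intrinsic factor. Cblif averaged 6.84 in knockout and 7.40 in wild type at day 30, and its log2 fold change was -0.56 (SE 0.10, limma adjusted p = 0.0147). Ctse, an intracellular aspartic protease of pit cells, was lower in knockout at both ages, with log2 fold changes of -0.52 at day 15 (limma adjusted p = 0.0396) and -0.70 at day 30 (limma adjusted p = 0.011).

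With age, Cym fell steeply and Muc5ac rose in both genotypes. In knockout, 3 of 9 members were higher and 1 lower at day 30 than at day 15, where 13.8% of all genes were called higher and 17.2% lower. In wild type 1 was higher and 2 were lower, against 12.3% and 17.0% of all genes. The median log2 fold change with age over the 9 members was 0.33 in knockout and -0.03 in wild type, beside 0.03 and 0.02 for all genes.

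Cym averaged 8.75 ± 0.16 at day 30 and 11.60 ± 0.20 at day 15 in knockout, a 7.21-fold lower level (log2 fold change -2.85, SE 0.12, limma adjusted p = 3.88e-09). In wild type it averaged 8.60 ± 0.15 at day 30 and 13.05 ± 0.14 at day 15, a 21.8-fold lower level (log2 fold change -4.45, SE 0.12, limma adjusted p = 1.21e-10). All errors of means are SDs over 3 arrays. The fall ranked 25th from the bottom of all genes in knockout and 5th in wild type.

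Muc5ac averaged 9.35 ± 0.33 at day 30 and 7.35 ± 0.71 at day 15 in knockout (log2 fold change 1.99, SE 0.46, limma adjusted p = 0.00471). It averaged 8.86 ± 1.12 at day 30 and 7.01 ± 0.23 at day 15 in wild type (log2 fold change 1.85, SE 0.46, limma adjusted p = 0.00776). In both genotypes each day 30 array was above each day 15 array, in spite of the spread within groups. Groups separated in this way, with day 30 higher, for 3 members in knockout and 1 in wild type, beside 20.9% and 20.7% of all genes. The other pit cell members were not called with age in either genotype. In knockout, Gkn1 had a log2 fold change of 0.69 (limma adjusted p = 0.119) and Gkn2 of 0.62 (limma adjusted p = 0.151), and without knockout replicate 1 at day 15 they were called, at 1.08 and 0.99.

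Among the gland genes, Muc6 and Tff2 rose with age in knockout. Muc6 averaged 12.36 ± 0.08 at day 30 and 11.89 ± 0.16 at day 15 (log2 fold change 0.47, SE 0.10, limma adjusted p = 0.00367). Tff2 averaged 13.31 ± 0.01 at day 30 and 12.98 ± 0.14 at day 15 (log2 fold change 0.33, SE 0.07, limma adjusted p = 0.00199). In wild type their log2 fold changes were 0.16 (95% interval -0.06 to 0.38) and -0.03 (95% interval -0.17 to 0.12), and neither was called. The change with age was not called as different between the genotypes for Muc6 or Tff2 (limma adjusted p = 0.574 and 0.172 for the difference of effects).

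Gkn3 fell with age in wild type, averaging 12.42 ± 0.03 at day 30 and 12.64 ± 0.04 at day 15 (log2 fold change -0.22, SE 0.06, limma adjusted p = 0.0198), and this call ended when arrays were centred on their medians (-0.16, limma adjusted p = 0.0705) and without wild type replicate 3 at day 15 or replicate 1 or 3 at day 30. In knockout its log2 fold change was 0.08 (95% interval -0.06 to 0.21), and its difference of effects was not called (limma adjusted p = 0.271). Pgc had a log2 fold change of -0.70 with age in wild type (SE 0.29, limma adjusted p = 0.0893), with all day 30 arrays below all day 15 arrays, and of 0.07 in knockout. Pgc in wild type was called without wild type replicate 2 at day 30 (-0.93, limma adjusted p = 0.0389). For 3 members in wild type and 1 in knockout, day 30 arrays were all lower, beside 23.1% and 22.0% of all genes. Smooth muscle genes moved with age as well, with 12 of 12 lower in each genotype.

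**Figure D4:**
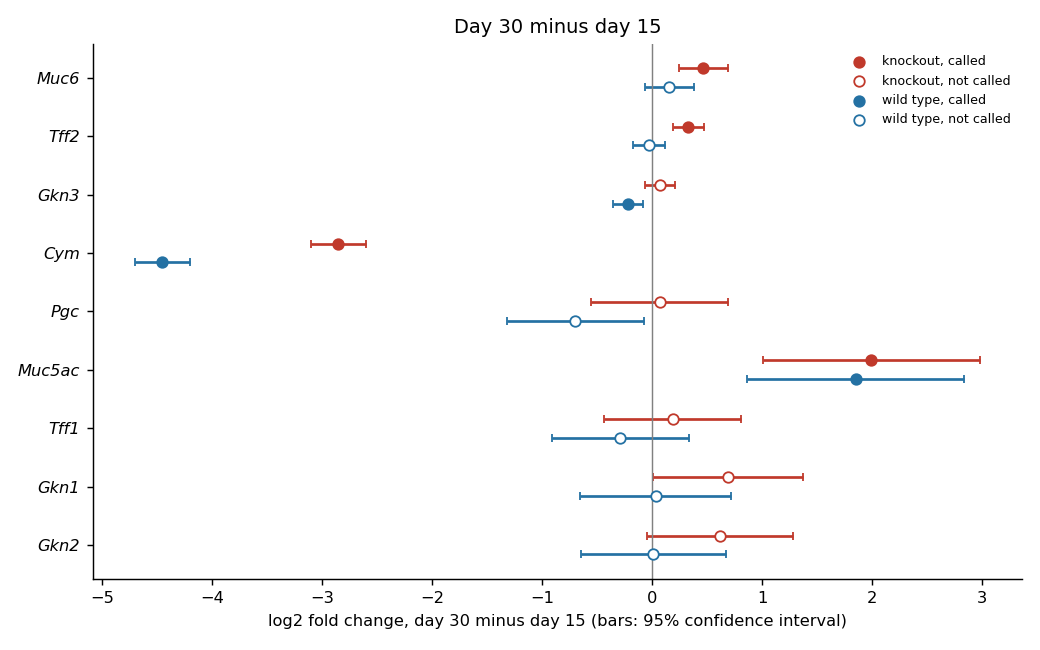
Log2 fold change, day 30 minus day 15, of each gene in knockout and wild type, with 95% confidence intervals from limma. Cym fell in both genotypes and less so in knockout, Muc5ac rose in both, Muc6 and Tff2 were called higher in knockout and Gkn3 lower in wild type. For Muc6, Tff2 and Gkn3 the change was not called as different between genotypes.

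Genes that modify or accompany these mucins had their own patterns. Of 17 measured genes of gastric mucin glycosylation, 4 were higher and 1 lower in knockout at day 15. The branching enzyme Gcnt4 (0.58), the sialyltransferase St6galnac1 (0.64) and the chain-extending enzyme B3gnt3 (0.28) were higher, and A4gnt was the lower one. None was called at day 30, although 6 of 17 had an unadjusted limma p under 0.05. With age 8 rose and 2 fell in knockout, and 6 rose and 2 fell in wild type, among them the fucosyltransferase gene Fut2, which rose by 2.57 in knockout and by 2.45 in wild type.

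Of 12 secreted and membrane mucins, Muc2 was higher (0.33, SE 0.06, limma adjusted p = 0.0137) and Muc6 lower in knockout at day 15. With age 7 rose in knockout and 6 in wild type and 0 fell in either. The membrane mucin Muc4 rose by 1.75 in knockout and by 1.70 in wild type. Among 11 goblet cell genes, 2 were higher and 1 was lower in knockout at day 15, and Spink4, a protease inhibitor of goblet cells, was higher at both ages (0.42 at day 15 and 0.52 at day 30).

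Of 13 pit cell genes, 0 were higher and 2 lower in knockout at day 15, the sulfotransferase gene Sult1c2 (-0.70, SE 0.10, limma adjusted p = 0.00164) and Ctse. At day 30, 1 was lower, again Ctse. The list's median log2 fold change was -0.24 at day 15 and 0.08 at day 30. Of 14 squamous forestomach genes 0 were called by limma in any of the 5 comparisons, with 0 at an unadjusted p under 0.05 at day 15 and 1 at day 30 between genotypes, 1 with age in knockout, 3 with age in wild type and 0 for the difference of genotype effects. Of 21 transcription factor genes of the stomach and pylorus, 1 was higher at day 15, and at day 30 limma called 0, with 3 at an unadjusted p under 0.05. Pdx1, which is needed for the pyloric region and Brunner's glands in mouse, had log2 fold changes of -0.22 (limma adjusted p = 0.133) and -0.24 (limma adjusted p = 0.126) and was not called at either age. Its knockout arrays lay below every wild type array at both ages, as did those of 12.2% of all genes at day 15 and 7.49% at day 30. Barx1, a factor of stomach mesenchyme, had -0.03 and 0.07.

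Likeness of pattern was measured as Pearson's r over the 12 arrays, as a description that carries group differences, since arrays of 1 group share genotype and age. Muc6 was most like Tff2 among the members (r = 0.95), and Gkn2 was most like Gkn1 (r = 0.98) and Tff1 (r = 0.87). Gkn2 and Gkn3, which are neighbours, had r = 0.47. Outside the members, the genes nearest to Muc6 were Gsta3, Prelp, Gys1 and Naa60 (r = 0.93 each) and Mtarc2 (0.92). Those nearest to Gkn2 were Psca (0.92), Olfr1136, Spdef and Clpb (0.86 each) and Tigd4 (0.85). Olfr1136 reached at most 4.39 on any array, below the median of the olfactory receptor genes. For Cym the nearest were Abcg8, Igfbp7, Slc16a13, Chga and Pdgfra (r = 0.99 each).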

How the data were processed

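Total RNA of 12 pools of mouse duodenum was labelled and hybridised to 12 Affymetrix mouse gene arrays. What was deposited is a table of log2 values, 1 per feature and array, which the authors made by RMA, using Affymetrix Expression Console 1.1, per the submitters' processing notes. RMA corrects background, equalises the distributions of the arrays and summarises probes, so it would hide a shift common to most genes, and folds of very bright or dim features are understated. The file names no log base, and base 2 follows from RMA and the range of the values. The number of arrays limits the precision.

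Of 35557 features, 21789 carried 1 gene symbol in the platform annotation, 1621 several and 12147 none. Features with 1 symbol were kept, and for 999 genes with several the highest mean over the 12 arrays decided, which left 19938 genes. A linear model of 4 group means (8 residual degrees of freedom) was fitted with limma (3.58.1, under R 4.3.3), moderated with eBayes and adjusted by Benjamini-Hochberg within each of 5 comparisons. These were knockout against wild type at each age, day 30 against day 15 in each genotype, and the difference of the genotype effects. The code was tested on simulated data. No source used here names the build of the array's annotation, so only promoter windows have coordinates, from RefSeq.

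Members and 19 gene lists (253 entries, 239 measured) were chosen with earlier results of these data known. The rule named all members, Onecut2, up to 4 genes of a list with the smallest p, a set of marker genes, and the 5 genes most correlated with Muc6, Gkn2 and Cym. Psca (as a pit cell gene), Vsig1, Cldn18, Capn8, Capn9, Atp4b, Gast, Ghrl and Xist were named after their values had been seen. Alternatives were an intensity trend, a filter on dim genes, averaged features, median centring, a replicate block, fits on the compared arrays alone, pancreas or smooth muscle covariates, and leaving out each array; leaving out both arrays that stood apart was added after seeing the data.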

Additional observations from a re-analysis of the deposited data

Results flagged for a closer look

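The genotype effect differed between the ages, by a test of the difference itself, in 3 of the genes named in this report. Over all genes 0.456% were called in that test, and the rule that named genes drew in part on small p-values. Of 13 measured genes on the ileum and colon list, 1 was called, in the positive direction. For Cym the effect at day 30 minus that at day 15 was 1.60 on the log2 scale (SE 0.16, limma adjusted p = 0.00079). Knockout was lower than wild type on 3 of 3 arrays at day 15, and the groups overlapped at day 30. For the branching enzyme gene Gcnt3, which extends the sugar chains of mucins, the difference was 0.62 (SE 0.11, limma adjusted p = 0.032). Its log2 fold change was -0.30 at day 15 and 0.32 at day 30, and neither was called on its own (limma adjusted p = 0.0522 and 0.0633). For Cblif the difference was -0.82 (SE 0.15, limma adjusted p = 0.0334), with log2 fold changes of 0.26 at day 15, which was not called, and of -0.56 at day 30, which was. Cblif was dim, between 6.53 and 7.50 on all arrays. Without each array in turn the call of Cym held (limma adjusted p = 0.000825 to 0.00477). That of Gcnt3 held without knockout replicate 1 at day 15, knockout replicate 3 at day 30 or wild type replicate 2 at day 30 and ended without each of the other 9 arrays (limma adjusted p = 0.0172 to 0.0923 over all 12). That of Cblif held without wild type replicate 1 at day 15, knockout replicate 3 at day 30 or wild type replicate 1 at day 30 and ended without each of the other 9 (limma adjusted p = 0.0205 to 0.104 over all 12).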

How the results depend on the processing

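Of the tests of single members under all alternatives, 849 kept their side of the threshold, 22 newly passed it in the same direction and 9 no longer passed. The sign changed in 32 of 882 tests, none of them called in the main result, and 30 were called in neither fit. Of these 30, 20 came from leaving out 1 array. The others were Tff1 (0.25) and Gkn1 (0.0003) at day 15 and Gkn2 (0.08) at day 30 with the smooth muscle covariate, Gkn2 (0.25) and Pgc (0.07) at day 30 with the pancreas covariate, Gkn2 at day 30 (0.0062) and Tff2 with age in wild type (0.03) with median centring, and Muc5ac at day 15 (-0.07) and Gkn2 (0.34) and Pgc (0.10) at day 30 without both arrays that stood apart. The 2 called were Gkn1 (-0.34) and Gkn2 (-0.34) with age in wild type without knockout replicate 1 at day 15 and wild type replicate 2 at day 30, an alternative chosen after seeing the data. In that fit 8 members were called for genotype at day 15 (beside 683 of all 19938 genes), 8 with age in knockout (beside 5391), 7 with age in wild type (beside 4981) and 5 for the difference of genotype effects (beside 112). Genotype at day 30 gave 1 called member (beside 278), which was Muc5ac, higher in knockout, while the call of Gkn3 ended. These arrays were chosen by pit cell levels, which also shrinks the spread. With an intensity trend, day 30 gave 596 called genes (395 in the main result) and 2 members, and the difference of effects 177 genes (91). From the compared arrays alone, day 15 gave 480 genes (764 in the main result) and day 30 gave 237. The smooth muscle mean as a covariate left 78 genes at day 15, and the pancreas mean 446 at day 15 and 228 at day 30. The cause was not tested. Without each array in turn the genes called ran from 340 to 782 at day 15, from 218 to 420 at day 30, from 4990 to 6258 with age in knockout, from 4561 to 6175 with age in wild type and from 47 to 123 for the difference. Members called ran from 4 to 5, 0 to 1, 4 to 6, 2 to 4 and 1 to 1 in the same order. With group means removed, arrays of the same replicate number had correlations from -0.252 to 0.359, with 7 of 18 above 0.1. Arrays of different numbers were not compared, so these values do not settle whether replicate numbers pair samples. With the replicate block 611 genes were called at day 15, 331 at day 30, 6039 and 5726 with age in knockout and wild type and 80 for the difference, and members called were 4, 1, 4, 3 and 1 as without it. For the difference of effects, the block gave limma adjusted p-values of 0.00364 for Cym, 0.0493 for Gcnt3 and 0.078 for Cblif, whose call ended. Median centring moved the median of all genes by under 0.1.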
